A study of Homo sapiens with 40 samples.

Results

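The mRNAs described here encode the chains that build the basement membrane, the thin sheet of matrix beneath epithelial cells: the collagen IV chains COL4A1, COL4A2, COL4A5 and COL4A6, the laminin chains LAMA1, LAMA5, LAMB1 and LAMC1, the proteoglycan perlecan (HSPG2) and the linker nidogen-1 (NID1). These 10 genes were picked by symbol from the 55765 symbols listed for each of 40 libraries, because they are long mRNAs of secreted proteins and because COL4A1 stood among the most polysomal mRNAs of the control siRNA cells. The polysomal measurement in control cells singled out COL4A1, the other 9 were picked by name and role, and for all 10 it is given below as a description with no test. All 10 passed the filter on low counts in each of the 3 experiments.

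All libraries came from HEK293, an established human embryonic kidney cell line, and held poly(A)-selected RNA counted per gene. The first experiment compared total RNA (RIP total RNA, n = 3) with RNA that came down with antibodies to endogenous eIF4A1, eIF4A2 or DDX6 (n = 3 each) in cells given no siRNA, to ask which mRNAs each DEAD-box RNA helicase binds. The second treated cells for 48 h with control siRNA or CNOT1 siRNA, against the scaffold of the Ccr4-Not complex, and separated cytoplasmic lysate made with cycloheximide on sucrose gradients into subpolysomal and polysomal pools that were sequenced beside the input (n = 4 for each of the 6 groups). The third compared total RNA after control siRNA with total RNA after a joint knockdown of TNRC6A and TNRC6B (TNRC6A/B siRNA), the scaffolds by which Argonaute-bound miRNAs recruit Ccr4-Not (n = 2 each). A library from an immunoprecipitation or a fraction was made from a set amount of RNA, so its CPM (counts scaled to the library total) give the share of an mRNA in that RNA and not an amount per cell. An IgG precipitate was not analysed here.

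Collagen IV chains assemble in the endoplasmic reticulum as heterotrimers, laminins as trimers of an alpha, a beta and a gamma chain, and both are secreted before they form networks outside the cell. Nidogen and perlecan bridge the laminin and collagen IV networks. Such secreted proteins are translated by ribosomes attached to the endoplasmic reticulum membrane. Collagen mRNAs are classic targets of the miR-29 family, and Ccr4-Not is the deadenylase complex through which miRNAs shorten poly(A) tails and repress translation.

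Gene counts per library ran from 26883978 to 46018900 in the IP experiment, from 15914206 to 40725601 on the gradients and from 15353317 to 28783532 with TNRC6A/B siRNA. HEK293 cells expressed NEFM at a mean of 2897 CPM over all libraries, VIM at 356 CPM and NEFL at 678 CPM, which are known features of this line, while INA (6.53 CPM), PAX2 (0.512 CPM) and NEFH (0.192 CPM) were low. Markers of differentiated kidney were at or near 0 (UMOD at 0 in all 40 libraries, AQP2 at no more than 1 count in any library). PTPRC and CD3E, of immune cells, had no more than 2 counts, and the endothelial CDH5 no more than 6. The endothelial KDR and VWF reached up to 57 and 39 counts (at most 1.72 and 1.11 CPM). The fibroblast markers COL1A1 (7.06 CPM), COL3A1 (4.49 CPM) and PDGFRA (1.83 CPM) were low, DCN had no more than 10 counts and LUM no more than 36. CNOT1 went against the label in the library labelled control siRNA polysomal replicate 3, with 28.3 CPM beside 470 to 501 CPM in the other 3 control polysomal libraries, and in the library labelled CNOT1 siRNA polysomal replicate 3, with 631 CPM beside 24.01 to 31.65 CPM in the other 3. Both libraries were kept as labelled, and polysomal results are also given without them. In the other fractions CNOT1 matched the labels, with 628 to 711 CPM in the control siRNA input and 36.8 to 41.4 CPM in the CNOT1 siRNA input, and 235 to 317 CPM and 73.5 to 89.6 CPM in the subpolysomal pools. Because the RNA is from bulk culture, fewer cells making a member and less of its RNA per cell cannot be told apart.

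Coordinates of the 10 genes are on GRCh37 with the GENCODE 44 annotation. COL4A1 (chr13:110801310-110959504, minus strand) and COL4A2 (chr13:110958159-111165556, plus strand) stand head to head, with the starts of their coding transcripts 126 bp apart. COL4A6 (chrX:107398837-107682727, minus strand) and COL4A5 (chrX:107683068-107940775, plus strand) form the second such pair, with starts 1407 bp apart. The laminin genes are at chr18:6941741-7117796 (LAMA1, minus strand), chr20:60883011-60942368 (LAMA5, minus strand), chr7:107564244-107643658 (LAMB1, minus strand) and chr1:182992555-183114727 (LAMC1, plus strand). HSPG2 (chr1:22148737-22263803, minus strand) and NID1 (chr1:236139130-236228409, minus strand) complete the set. The annotated spans of COL4A1 and COL4A2 overlap by 1346 bp on opposite strands, and every other member also overlaps an annotated gene, pseudogene or noncoding RNA on the opposite strand, so that some reads could not be assigned with certainty if strand was not used in counting.

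The 3′UTR of 7 of the 10 members, in exonic sequence after the stop codon, held a match to the seed of miR-29. The mature miRNAs (RefSeq, GRCh38.p14) are printed 5′ to 3′ because the shared seed, bases 2 to 8 in capitals, is what these 7 mRNAs match.

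hsa-miR-29a-3p: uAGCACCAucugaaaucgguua

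hsa-miR-29b-3p: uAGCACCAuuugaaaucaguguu

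hsa-miR-29c-3p: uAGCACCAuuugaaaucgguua

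The first match in each member, read 5′ to 3′ on the strand of the gene from GRCh37, carries the heptamer TGGTGCT in capitals, after 15 bases of upstream sequence.

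COL4A1, chr13:110802673-110802695, minus strand: gctaatgtcacaacaTGGTGCTa

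COL4A2, chr13:111164551-111164573, plus strand: caggaagggccatttTGGTGCTt

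COL4A5, chrX:107939699-107939721, plus strand: tactgctgccgtcaaTGGTGCTa

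COL4A6, chrX:107400001-107400023, minus strand: ctgtttctgtcaagcTGGTGCTa

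LAMC1, chr1:183113373-183113395, plus strand: tattatctgacacacTGGTGCTa

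HSPG2, chr1:22148968-22148990, minus strand: acggacggatgccgcTGGTGCTc

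NID1, chr1:236140669-236140691, minus strand: cttaatgttttgtttTGGTGCTc

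All 4 collagen IV mRNAs held the heptamer, within 222 bases of the stop codon in each, and in COL4A1 and COL4A2 it began at base 30 and base 28 of the 3′UTR. LAMA1, LAMA5 and LAMB1 held none in the transcript used. Of 13175 genes with an annotated 3′UTR 15.2% held TGGTGCT, and 10.5% of the 9184 genes whose 3′UTR was within the members' range of 152 to 2802 nt. Other seed matches were rarer among the members. The let-7 match CTACCTC stood in 1 member (COL4A6; 10.5% of all genes), the miR-17 match GCACTTT in 3 (COL4A1, COL4A2 and LAMC1; 23.4%) and the miR-25/92 match GTGCAAT in 1 (COL4A6; 12% of all genes). A match of letters describes the sequence and is not a shown site of repression.

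The members were picked as long mRNAs, so their length is a description and not a result. Their coding sequence ran from 3744 nt in NID1 to 13176 nt in HSPG2, with a median of 5132 nt against 1452 nt over all genes tested. All 10 exceeded that median, HSPG2 lying at percentile 99.7. Their GC content varied from 48.8% to 66.44% of the mRNA, with LAMA5, HSPG2 (64.52%) and COL4A2 (61.84%) at the upper end and a median over all genes of 48.79%. The 5′UTRs ran from 11 nt in NID1 to 297 nt. Purine tetramers (runs of 4 bases that are each A or G, in the 8 forms searched), to which eIF4A helicases have been linked, had a median density in the 5′UTR of 1.70 per 100 nt beside 1.72 per 100 nt over all genes. NID1 was highest at 9.09 per 100 nt (percentile 99.3), which rests on 1 tetramer in a 5′UTR of 11 nt. COL4A5 at 4.86 per 100 nt (percentile 94.2) and LAMB1 at 3.65 (percentile 85.5) followed, and LAMA1 had none.

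LAMC1, the gamma chain shared by most laminins, was the most abundant of the 10 mRNAs once length was taken into account. In RIP total RNA it stood at 66.0 ± 9.82 CPM per kb of merged exon (SD, n = 3), ahead of NID1 at 19.0, COL4A2 at 16.3 and COL4A1 at 15.3. LAMA5 at 7.57 and LAMB1 at 7.28 followed, and COL4A6 (3.52), COL4A5 (3.24), HSPG2 (2.27) and LAMA1 (1.82) were low. In the gradient input of control cells LAMC1 was again first at 57.2 ± 3.78 CPM per kb (SD, n = 4), while COL4A1 was at 12.9 and LAMA1 (0.990) and HSPG2 (0.772) were last. The order below LAMC1 depended on the length used. Per kb of a single coding transcript, COL4A2 (48.6) and COL4A1 (34.3) stood above NID1 (19.1) in RIP total RNA.

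The RNA bound by each helicase held a smaller share of most members than total RNA did. COL4A2 showed this most clearly, at 331, 301 and 309 CPM in the 3 total RNA libraries. It was at 77.5, 57.9 and 51.2 CPM in the eIF4A1 IP, at 70.8, 46.9 and 19.4 CPM in the eIF4A2 IP and at 80.6, 53.4 and 40.7 CPM in the DDX6 IP. Every IP library lay below every total RNA library. In edgeR's quasi-likelihood test COL4A2 was 5.04-fold lower in the eIF4A1 IP (log2 fold change −2.33, SE 0.37, FDR 1.85e-04), with log2 fold changes of −2.78 in the eIF4A2 IP (SE 0.38, FDR 5.42e-05) and −2.43 in the DDX6 IP (SE 0.37, FDR 2.16e-04). Of 17474 genes ordered from highest to lowest fold change in the eIF4A2 IP, it was number 17440. The 3 IP comparisons share the same total RNA libraries, so their values are set side by side and are not independent of each other.

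COL4A1, its partner chain, was at 215, 212 and 246 CPM in total RNA. It fell to 80.2, 58.8 and 79.3 CPM in the eIF4A1 IP, to 71.8, 50.4 and 27.5 CPM in the eIF4A2 IP and to 78.6, 55.5 and 61.5 CPM in the DDX6 IP. The groups did not overlap. The log2 fold changes were −1.62 (SE 0.27, FDR 2.67e-04), −2.17 (SE 0.28, FDR 3.23e-05) and −1.78 (SE 0.27, FDR 2.12e-04). COL4A5 and COL4A6, which encode chains found in a narrower range of basement membranes, did not pass in any IP. COL4A5 was at 35.3, 30.9 and 49.0 CPM in total RNA and at 51.3, 28.2 and 41.5 CPM in the eIF4A1 IP, where the groups overlapped. Its log2 fold change was 0.07 (95% interval −0.38 to 0.53, FDR 0.814) in the eIF4A1 IP, 0.27 (FDR 0.347) in the eIF4A2 IP and −0.28 (FDR 0.346) in the DDX6 IP. COL4A6 was at −0.28 (FDR 0.378), −0.16 (FDR 0.623) and −0.65 (FDR 0.0521). With replicate number as a block, which the pairing of these libraries allows, COL4A6 in the DDX6 IP passed at −0.67 (FDR 0.00102). It also passed there by DESeq2 (FDR 0.0331), with RLE factors (FDR 0.0474), with no filter on low counts (FDR 0.00648) and in a fit of the DDX6 IP and total RNA libraries alone (FDR 0.0191).

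Of the laminin chains LAMC1, LAMB1 and LAMA1 passed in each IP and LAMA5 in none. LAMC1 was at 502, 517 and 653 CPM in total RNA, at 143, 147 and 269 CPM in the eIF4A1 IP and at 192, 152 and 201 CPM in the eIF4A2 IP, with no overlap. Its log2 fold change was −1.58 (SE 0.26, FDR 2.64e-04) in the first and −1.62 in the second (SE 0.26, FDR 2.29e-04). LAMB1, the beta chain, fell from 131, 125 and 150 CPM in total RNA to 37.1, 34.0 and 45.7 CPM in the eIF4A1 IP, a 3.48-fold difference (log2 fold change −1.80, SE 0.19, FDR 9.45e-06). LAMA1, the alpha chain of early embryonic laminin, fell by 1.82 on the log2 scale in the eIF4A1 IP (FDR 1.64e-05), by 1.51 in the eIF4A2 IP (FDR 5.95e-05) and by 1.48 in the DDX6 IP (FDR 1.14e-04). LAMA5, the alpha chain of most adult epithelial basement membranes, varied widely between libraries. It was at 117, 117 and 90.1 CPM in total RNA and at 125, 65.3 and 50.6 CPM in the eIF4A1 IP, and its log2 fold changes of −0.43 (FDR 0.254), −0.71 (FDR 0.0704) and −0.54 (FDR 0.165) did not pass. Without replicate 1 of the IP it passed in the eIF4A1 IP (−0.89, FDR 0.0174) and in the eIF4A2 IP at −1.02 (FDR 0.0235). With all libraries it passed in the eIF4A2 IP by DESeq2 (FDR 0.0477), and with no filter or only the compared libraries in the eIF4A2 IP (FDR 0.000861 and 0.0317) and the DDX6 IP (FDR 0.0282 and 0.0306). With the replicate block all 3 passed, at −0.53 (FDR 0.0250), −0.77 (FDR 0.00295) and −0.56 (FDR 0.0203).

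Both linkers fell. HSPG2 was at 38.2, 42.6 and 42.6 CPM in total RNA and at 22.2, 14.0 and 17.0 CPM in the eIF4A1 IP (log2 fold change −1.21, SE 0.20, FDR 2.59e-04), with values of −1.45 (FDR 7.07e-05) in the eIF4A2 IP and −0.97 (FDR 0.00165) in the DDX6 IP. NID1 was at 98.7, 106 and 127 CPM in total RNA and at 30.1, 26.1 and 35.7 CPM in the eIF4A2 IP, where it fell by 1.85 on the log2 scale (SE 0.26, FDR 6.47e-05). Its eIF4A1 IP value was −1.31 (FDR 7.98e-04) and its DDX6 IP value −1.13 (FDR 0.00271).

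In all, 7 of 10 members were called lower in the eIF4A1 IP, where 26.5% of all 17474 genes tested were lower, 7 in the eIF4A2 IP beside 25.8% of genes, and 7 in the DDX6 IP beside 23.3% of genes. No member was called higher in any IP, beside 26.1%, 24.5% and 22.7% of genes in the same order. All 3 IP libraries lay below all 3 total RNA libraries for 7 members in the eIF4A1 IP (29.3% of genes), for 7 in the eIF4A2 IP (30.0%) and for 8 in the DDX6 IP (29.0%), where COL4A6 joined them. The members' median log2 fold change was −1.45, −1.56 and −1.28 in the 3 IPs, beside medians over all genes of 0.04, 0.01 and 0.01. With the replicate block the counts were 8, 8 and 9 members, beside 32.0%, 31.9% and 30.4% of all genes. The summed level of the 6 HEK293 markers was also lower in the IPs. It was 4673 to 6651 CPM in total RNA and 844 to 1492, 371 to 1619 and 870 to 2297 CPM in the eIF4A1, eIF4A2 and DDX6 IPs. Most of the sum was NEFM, so it does not show that each marker fell, and its part in the result was not tested.

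**Figure D1:**
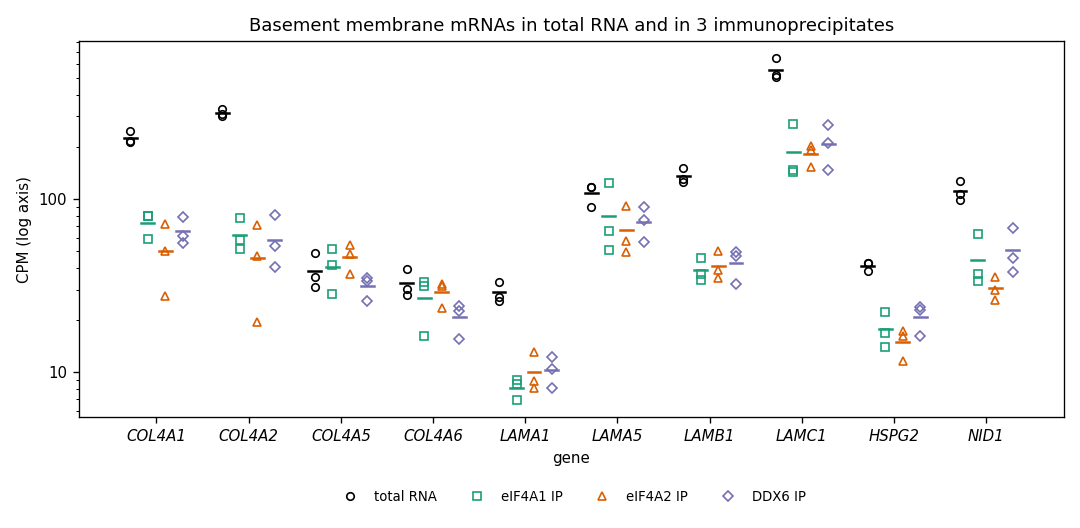
Level of each member in CPM (log axis) in the 3 libraries each of RIP total RNA and of the eIF4A1, eIF4A2 and DDX6 IPs. Points are libraries and bars are group means, and for COL4A1 all IP libraries lie between 27.5 and 80.2 CPM, below the 212 to 246 CPM of total RNA, while COL4A5 overlaps.

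Further genes of the matrix and its secretion were counted from lists of genes with known roles. In the eIF4A1 IP 26.5% of all genes tested were lower and 26.1% higher. Of 21 further basement membrane genes tested, 12 were called lower and none higher in the eIF4A1 IP (median −0.71), among them FREM2 at −1.99 and FBLN1 at −1.86. Of 22 genes for collagen folding and export (median −1), 14 were lower, with PPIB, a prolyl isomerase of the endoplasmic reticulum, at −1.81 and MIA3, which loads collagen into export vesicles, at −1.51, and 1 was higher, KLHL12 at 0.43. Among 11 matrix receptors (median −0.64) 6 were lower, including the laminin-binding ITGA6 at −1.28, while DDR1, a collagen receptor, was higher at 0.94. Other collagens counted 8 lower and 3 higher of 17 (median −0.67), COL6A2 at −1.83 and COL27A1 at 0.74 among them. With the lists in the same order, 12, 15, 6 and 7 were lower in the eIF4A2 IP (25.8% of genes) and 0, 0, 2 and 3 higher (24.5%). For the DDX6 IP the counts were 12, 13, 6 and 8 lower (23.3%) and 1, 1, 1 and 2 higher (22.7%).

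The question of whether eIF4A2 binds a member more or less than its paralogue or DDX6 does was put directly. By edgeR no member differed between the eIF4A2 and eIF4A1 IPs, beside 0.973% of genes called higher and 0.0858% lower, and none at an unadjusted p under 0.05. Between the eIF4A2 and DDX6 IPs, where 9.82% of genes were higher and 11.3% lower, no member passed, 3 had an unadjusted p under 0.05, and DESeq2 called 1. The values there ran from −0.72 for NID1 (FDR 0.0574) to 0.55 for COL4A5 (FDR 0.108). Between DDX6 and eIF4A1 no member was called either, nor had any an unadjusted p under 0.05, beside 0.0801% of genes higher and 0.0114% lower. With the replicate block COL4A5 (0.55, FDR 0.00605) and COL4A6 (0.50, FDR 0.0115) were higher, and HSPG2 (−0.48, FDR 0.0196) and NID1 (−0.69, FDR 0.00107) lower, in the eIF4A2 than in the DDX6 IP, beside 18.5% of genes higher and 22.0% lower. In the eIF4A2 against the eIF4A1 IP, the block called NID1 lower at −0.50 (FDR 0.0208), beside 8.70% of genes lower.

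On the gradients COL4A1 was concentrated in polysomes, the fractions in which several ribosomes sit on an mRNA. In control cells it was at 11.8, 11.2, 16.7 and 11.5 CPM in the subpolysomal pool and at 131, 110, 106 and 127 CPM in the polysomal pool. The fitted polysomal to subpolysomal ratio was 9.23-fold (log2 3.21), number 8 of 16776 genes. COL4A2 was next among the members at 6.66-fold (log2 2.74, number 29), with 13.1, 9.81, 28.6 and 18.7 CPM subpolysomal and 163, 112, 76.3 and 114 CPM polysomal. LAMC1 at 1.69, NID1 at 1.51, LAMA1 at 1.34, HSPG2 at 1.31, COL4A6 at 1.11, LAMB1 at 0.85, LAMA5 at 0.57 and COL4A5 at 0.33 followed on the log2 scale. Without both libraries labelled polysomal replicate 3, COL4A1 was at 3.27, COL4A2 at 2.91, LAMC1 at 1.69, NID1 at 1.63, COL4A6 at 1.26, LAMA1 at 1.12, HSPG2 at 0.90, LAMA5 at 0.78, LAMB1 at 0.49 and COL4A5 at 0.34. These control values were known when the set was made and are given as a description. LAMA5 was unsteady, with 3.91, 4.31, 18.95 and 10.5 CPM in the control subpolysomal libraries.

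The same ratio in CNOT1 siRNA cells came from other libraries than the control ratio, of which the library labelled polysomal replicate 3 had CNOT1 at a control level. COL4A1 was picked for this trait, with earlier results of these data known, so its value here is no independent support. In CNOT1 siRNA cells COL4A1 was at 12.3, 13.6, 19.0 and 13.5 CPM subpolysomal and at 95.9, 94.2, 157 and 97.8 CPM polysomal. It was 7.63-fold higher in polysomes (log2 2.93, SE 0.17, FDR 4.09e-13, number 6 of all genes). COL4A2 was 6.66-fold higher (log2 2.74, SE 0.30, FDR 1.78e-08, number 10), from 10.5, 10.8, 22.9 and 15.6 CPM to 86.2, 82.3, 154 and 72.8 CPM. In both, each polysomal library lay above each subpolysomal library. LAMC1 followed with 78.0, 81.6, 70.0 and 62.4 CPM subpolysomal and 224, 208, 449 and 228 CPM polysomal (log2 1.92, FDR 8.50e-10). NID1 (1.57, FDR 5.11e-09), COL4A6 (1.48, FDR 3.71e-06), LAMA1 (1.45, FDR 3.09e-07) and LAMB1 (1.08, FDR 3.41e-05) also rose in polysomes. HSPG2 at 1.39 (FDR 0.00624) and LAMA5 at 1.46 (FDR 0.00910) passed less clearly, and COL4A5 did not pass at 0.44 (FDR 0.0654), although it did at 0.57, 0.61 and 0.52 without CNOT1 siRNA polysomal replicate 1, 2 or 4 (FDR 0.0252, 0.0110 and 0.0436).

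Thus 9 of 10 members were called higher in polysomes in CNOT1 siRNA cells by edgeR, where 34.1% of all genes were. COL4A1, picked for this trait, is among the 9. The control ratios of all 10 were known when the set was made, so the count describes the set and is no independent support. The members' median was 1.47 beside −0.01 over all genes. Without both libraries labelled polysomal replicate 3 the count was 8 of 10, beside 36.0% of genes, LAMA5 having 1.02 (FDR 0.0553) and COL4A5 0.02. The ratio of COL4A1 was then 2.73 on the log2 scale, COL4A2 2.45, LAMC1 1.60, HSPG2 1.40, LAMA1 1.34, NID1 1.33, COL4A6 1.09 and LAMB1 0.98. With all libraries, 18 of 22 tested genes of collagen folding and export were also higher, as were 14 of 18 further basement membrane genes and 6 of 10 matrix receptors. Those counts were the same without both libraries labelled polysomal replicate 3. Of 17 other collagens 7 were higher with all libraries, beside 34.1% of all genes, and 5 without both, beside 36.0%. With all libraries none of any list was lower, beside 34.7% of all genes. PPIB was at 1.95, SERPINH1, the collagen chaperone HSP47, at 1.64, the basement membrane protein SMOC1 at 2.49 and the laminin receptor DAG1 at 1.79.

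**Figure D2:**
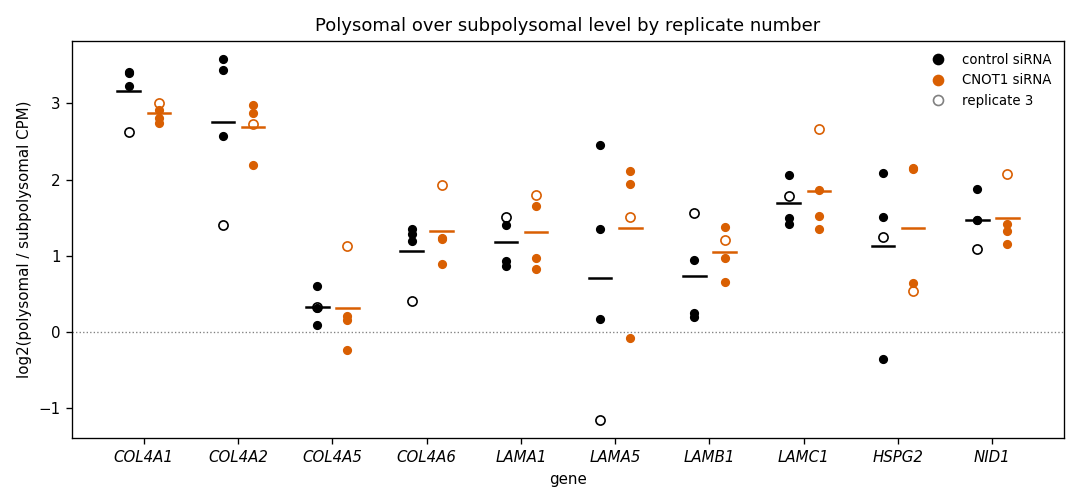
Polysomal to subpolysomal log2 ratio of each member for each replicate number in control and CNOT1 siRNA cells, with bars at the mean and open circles at the libraries labelled polysomal replicate 3. COL4A1 lies highest, with a mean of 3.17 ± 0.37 (SD, n = 4) in control cells and 2.87 ± 0.12 (SD, n = 4) in CNOT1 siRNA cells, while LAMA5 in control cells spreads from −1.17 to 2.46.

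The input, the lysate before the gradient, held a larger share of most members than either pool did. COL4A1 was at 198, 185, 187 and 188 CPM in the control input, above all 8 libraries of the control pools, the highest of which was 131 CPM. In control cells 9 of 10 members had every input library above every library of both pools, against 3.26% of all genes. LAMA5 was the exception, its lowest input library at 23.06 CPM and its highest polysomal library at 23.69 CPM. COL4A2 was separated only narrowly, its lowest input library at 163.2 CPM and its highest polysomal library at 163.1 CPM. In control cells mean input was 1.44 to 2.44 times mean polysomal level and 2.14 to 14.8 times mean subpolysomal level. In CNOT1 siRNA cells, with the library labelled polysomal replicate 3 included, it was 0.929 to 2.22 times mean polysomal level, below 1 for COL4A2, COL4A6 and NID1, and 1.54 to 8.33 times mean subpolysomal level. In CNOT1 siRNA cells 3 members (LAMA1, LAMB1 and HSPG2) met this, against 5.14% of genes, but without the libraries labelled polysomal replicate 3 the count was 9, against 7.38%. Without both libraries the control count stayed at 9, against 8.27%. These are counts of separated libraries with no test, and how the shares of other RNAs in the pools bear on them was not tested. The control count includes COL4A1 and uses the control pool libraries that helped to pick it, so it is not independent of that choice.

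**Figure D3:**
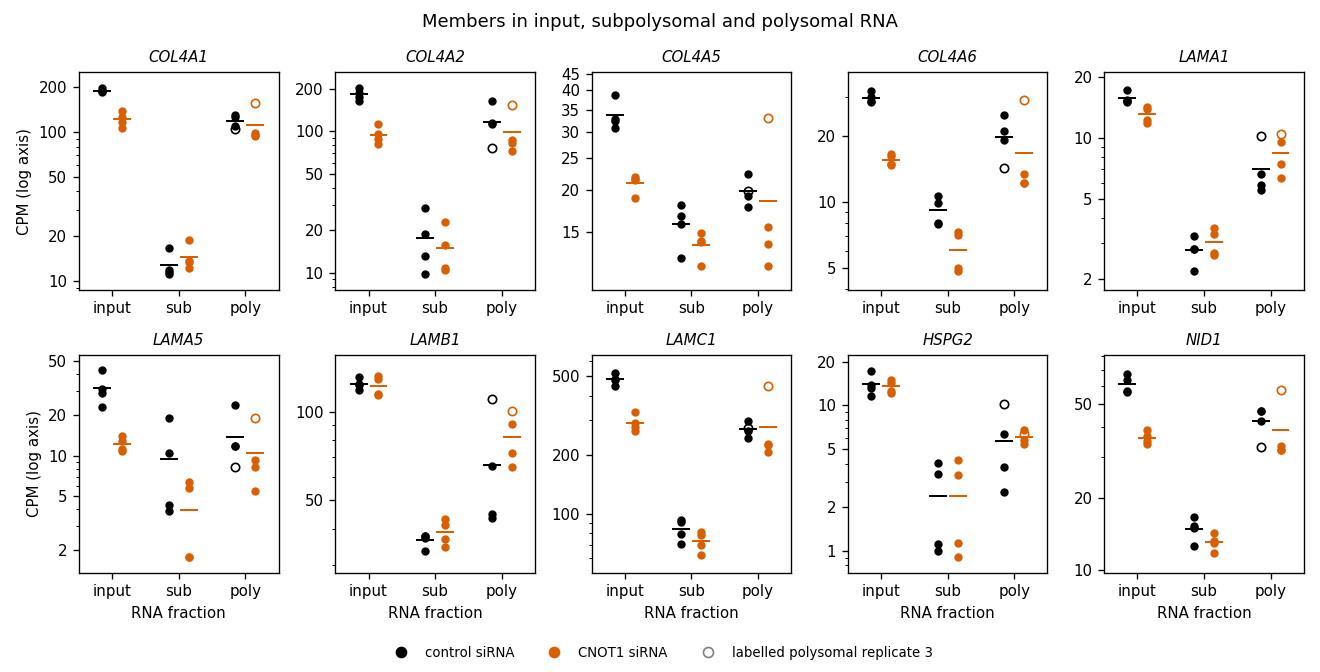
Level of each member in CPM (log axis) in the input, subpolysomal and polysomal libraries of control and CNOT1 siRNA cells, 4 libraries a group, with bars at group means and open circles at the libraries labelled polysomal replicate 3. The control input of COL4A1 lies between 185 and 198 CPM, above both pools, and its CNOT1 siRNA input between 106 and 139 CPM.

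Most members were lower in the input after CNOT1 siRNA. COL4A1 fell from 198, 185, 187 and 188 CPM to 125, 116, 106 and 139 CPM. The groups did not overlap, and the log2 fold change was −0.64 (SE 0.16, FDR 0.00779). COL4A2 fell from 188, 176, 204 and 163 CPM to 95.01, 88.1, 81.7 and 113 CPM (−0.95, SE 0.28, FDR 0.0155), also without overlap. Of the other collagen IV chains, COL4A6 fell from 29.9, 28.8, 32.1 and 28.3 CPM to 16.4, 14.7, 14.8 and 16.2 CPM (−0.94, SE 0.22, FDR 0.00693). COL4A5 fell by 0.68 on the log2 scale (SE 0.20, FDR 0.0174), but without the control input replicate 3 it was at −0.61 (FDR 0.0541).

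The laminins differed from each other. LAMC1 fell from 524, 483, 480 and 446 CPM to 329, 279, 265 and 290 CPM (−0.73, SE 0.17, FDR 0.00698). LAMB1 stood at 123, 119, 125 and 131 CPM and at 132, 115, 114 and 129 CPM, overlapping, with a difference of −0.02 (95% interval −0.40 to 0.35, FDR 0.940). LAMA5 fell from 31.3, 29.2, 43.1 and 23.1 CPM to 10.8, 12.8, 11.2 and 14.1 CPM (−1.37, SE 0.44, FDR 0.0247), the members' steepest fall. Its call was lost without the control input replicate 3 (−1.19, FDR 0.0740) and without CNOT1 siRNA input replicate 1 (−1.32, FDR 0.0607) or replicate 3 (−1.34, FDR 0.0615). LAMA1 did not pass at −0.27 (FDR 0.238), although its 4 CNOT1 siRNA libraries, at most 14.3 CPM, lay below its 4 control libraries, at least 14.98 CPM. Among the linkers NID1 fell from 63.4, 67.1, 56.7 and 56.5 CPM to 38.9, 36.6, 33.8 and 34.8 CPM (−0.76, SE 0.15, FDR 0.00673), and HSPG2 had −0.05 (95% interval −0.80 to 0.70, FDR 0.931).

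By edgeR 7 of 10 members were lower in the input, where 15.6% of all 16776 genes were lower, and none was higher, beside 13.4% of genes, with a member median of −0.71 beside −0.03 for all genes. Without both libraries labelled polysomal replicate 3, which share this fit but not this comparison, 7 were lower beside 21.1% of genes. With only the input libraries in the fit LAMA1 also passed (−0.25, FDR 0.0154), where 4713 of 15686 genes were lower and 4848 higher. The summed HEK293 markers were at 5667 to 6108 CPM in the control input and at 3692 to 4239 CPM in the CNOT1 siRNA input, and their part in the result was not tested. Of the further lists, 6 of 18 basement membrane genes were lower (AGRN at −1.05 and COL18A1 at −0.98 among them; median −0.35) and none higher, and 6 of 17 other collagens were lower (median −0.62), COL2A1 at −1.34. Folding and export genes (median 0.06) counted 3 higher and 2 lower of 22, with SERPINH1 at 0.71 and SEC23A, of the COPII coat, at −0.59. Of 10 matrix receptors (median −0.25) DAG1 rose at 0.53 and 1 fell.

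**Figure D4:**
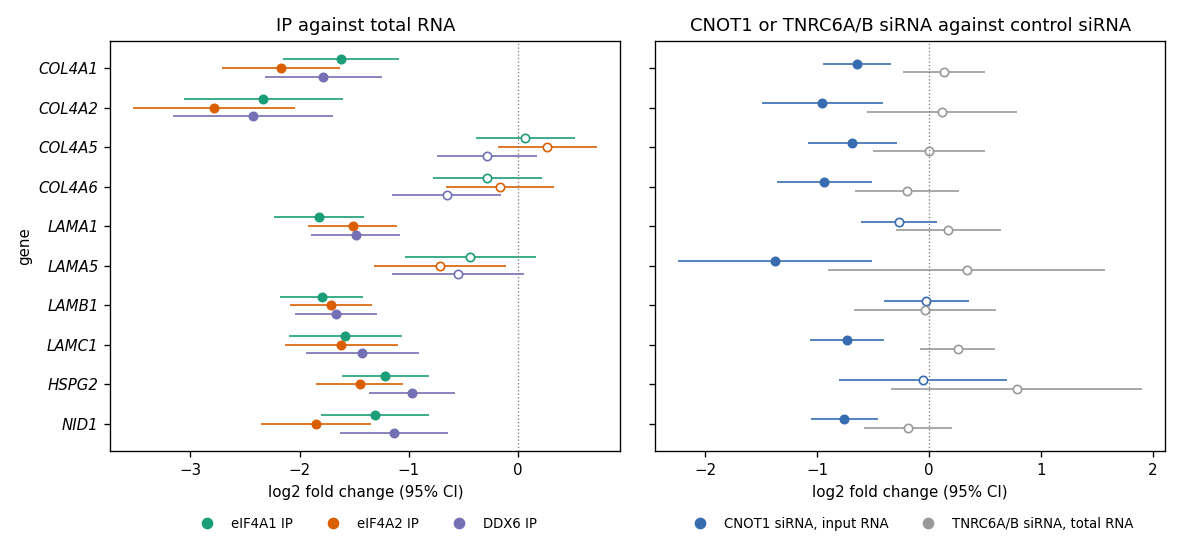
Log2 fold change of each member with its 95% interval, for the eIF4A1, eIF4A2 and DDX6 IPs against total RNA (left) and for CNOT1 siRNA input and TNRC6A/B siRNA total RNA against their controls (right). Filled points passed an FDR of 0.05 in edgeR and open points did not, and COL4A5 and LAMB1 stand out, the first near 0 in the IPs and the second at −0.02 with CNOT1 siRNA.

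In the subpolysomal pool 2 of the 9 members tested fell with CNOT1 siRNA, where 19.1% of genes were lower. COL4A1 is left untested here, since its control subpolysomal libraries helped to pick it, and the tests of the other 9, here and in the polysomal pool and the interaction, share those control libraries and are not independent of that choice. COL4A6 fell from 9.92, 8.04, 10.6 and 7.93 CPM to 4.86, 4.99, 7.26 and 7.04 CPM without overlap (−0.61, SE 0.23, FDR 0.0451), but its call was lost without control subpolysomal replicate 1 (FDR 0.1002) or 3 (FDR 0.108), or CNOT1 siRNA subpolysomal replicate 1 (FDR 0.122) or 2 (FDR 0.121). LAMA5 fell by 1.29 on the log2 scale (SE 0.48, FDR 0.0424) with overlapping groups, and was at −0.68 (FDR 0.274) without control subpolysomal replicate 3. It also lost its call without control replicate 4 (FDR 0.0793) or CNOT1 siRNA replicate 1 (FDR 0.125) or 2 (FDR 0.129). Within each of the 4 replicate numbers, which pair the subpolysomal libraries, COL4A6, LAMA5, LAMC1 and NID1 were lower after CNOT1 siRNA. The share of all genes that were lower in every pair was not counted, so this describes the values only. Without both libraries labelled polysomal replicate 3, 24.3% of genes were lower and 2 members were called lower. The other 7 ran from −0.23 to 0.15, and COL4A1 was at 0.19 with no test.

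In the polysomal pool no member passed, nor did any gene (0.0% in either direction), by edgeR (433 genes higher and 690 lower at an unadjusted p under 0.05, of which no member, and none by DESeq2). The 9 members ran from −0.40 to 0.32. Without both libraries labelled polysomal replicate 3, 14.6% of genes were lower and 17.1% higher. Then COL4A5 (−0.53, FDR 0.00532), COL4A6 (−0.78, FDR 3.51e-04) and NID1 (−0.48, FDR 0.00121) were lower and LAMB1 (0.57, FDR 0.00220) was higher. LAMB1 stood at 43.5, 44.8 and 65.3 CPM in the 3 remaining control libraries and at 72.7, 65.1 and 90.9 CPM in the 3 remaining CNOT1 siRNA libraries. COL4A1 had −0.09, and −0.35 without both, with no test.

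Whether CNOT1 siRNA moved a member from one pool to the other was put as a fraction-by-siRNA interaction. None of the 9 members passed by edgeR, beside 3.26% of genes higher and 2.40% lower, and none had an unadjusted p under 0.05. Their estimates ran from −0.0007 to 0.88. COL4A1 had −0.27 with no test. Without both libraries labelled replicate 3 the count was again 0, beside 9.99% and 7.51% of genes, and COL4A1 had −0.54. The 9 then ran from −0.46 for COL4A2 to 0.50 for HSPG2, and COL4A5, COL4A6, LAMC1 and NID1 turned from positive to negative estimates. Without the library labelled control siRNA polysomal replicate 3 alone, LAMB1 passed at 0.60 (FDR 0.0404).

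Knockdown of TNRC6A and TNRC6B left no member past the threshold in the fit without pairing. TNRC6A was at 178 and 189 CPM after control siRNA and at 40.5 and 64.7 CPM after TNRC6A/B siRNA, and TNRC6B fell from 67.6 and 73.1 CPM to 17.7 and 26.3 CPM. LAMC1 was at 549 and 605 CPM and then at 691 and 687 CPM, without overlap, and COL4A1 at 173.0 and 154.2 CPM and then at 186.2 and 173.8 CPM, also apart by a narrow margin. Neither difference was called, with log2 values of 0.26 for LAMC1 (95% interval −0.08 to 0.59) and 0.14 for COL4A1 (−0.23 to 0.50). LAMA1 was also higher without overlap (21.38 to 25.06 CPM, then 25.88 to 26.5 CPM). In the other direction, COL4A6 (30.36 to 32.93 CPM, then 25.53 to 29.75 CPM) and NID1 (73.4 to 78.55 CPM, then 65.1 to 68.26 CPM) were lower without overlap. None of these was called, and the share of all genes without overlap was not counted. HSPG2 had the highest estimate at 0.78, with 13.4 and 4.75 CPM after control siRNA and 19.2 and 12.2 CPM after knockdown, overlapping. The 7 members with a miR-29 seed match ran from −0.20 to 0.78 and the 3 without from −0.03 to 0.34. In the fit without pairing no gene of 14064 (0.0%) passed by edgeR, 173 were higher and 116 lower at an unadjusted p under 0.05, of which no member, and DESeq2 called 6 higher and 2 lower. With 2 libraries in each group this fit had little power, so the lack of a call does not show that a member was unchanged. With replicate number as a block, edgeR called HSPG2 higher at 0.86 (FDR 0.000811), beside 520 genes higher and 243 lower.

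Over the 12 group means, each centred within its experiment, several other mRNAs tracked COL4A1 more closely than its partner chain did. Pearson's r of log2 CPM was 0.994 for ACLY, 0.992 for MAN1A1, 0.991 for ATP6V1A, and 0.990 for both CTNNA1 and PARP1, among 9686 genes compared. COL4A2 had 0.981 (number 30), LAMC1 0.977 (number 50) and NID1 0.963 (number 168), and COL4A5 was the least like COL4A1 of the members at 0.631 (number 3751). The 12 points share depth and fraction differences with every gene, and the values describe likeness only.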

How the data were processed

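Per the labels and the study's methods, the authors prepared TruSeq Stranded mRNA libraries, made reads with bcl2fastq 2.0, aligned them to hg19 with TopHat2 and counted them per gene symbol with htseq-count, and deposited the raw counts. Whether strand was used in counting is not given in the sources used here. A deposited table of the authors' own IP comparisons was not used. No per-sample column was left out (0).

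Counts were fitted per experiment (RIP, gradient, TNRC6) over all its libraries with edgeR 4.0.16 in R 4.3.3 (filterByExpr, TMM, quasi-likelihood F test), and FDR values are Benjamini-Hochberg adjusted over all genes tested, with a threshold of 0.05. CPM used TMM-scaled library sizes. Errors are SD over libraries, and intervals are 95%. Annotation was GENCODE 44 on GRCh37. The code was tested on simulated data. The labels do not say that numbered libraries came from separate cultures, so p-values measure the spread between these libraries, which may be technical.

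The members and gene lists were chosen with earlier results of these data known. Named genes were all 10 members, CNOT1, TNRC6A and TNRC6B, the cell markers, up to 2 called genes of each list in each direction with a mean of at least 10 CPM, and the 5 most like COL4A1. Replicate numbers were checked for pairing by correlating deviations from group means. All 18 RIP pairs exceeded 0.1 (0.138 to 0.628), so the replicate block is given beside IP results that it changed. On the gradients 30 of 60 did (−0.519 to 0.629), with all 4 pairs over 0.1 between the input groups (0.134 to 0.235) and between the subpolysomal groups (0.469 to 0.629) and none of 4 between the polysomal groups, so the numbers were taken as pairs only in the first 2 of these. In the TNRC6 experiment both of 2 pairs stood at 0.821, but 2 numbers are few to judge pairing, so its block is given as an alternative. Alternatives were RLE factors, no filter, DESeq2 1.42.0, only the compared libraries, the replicate block, leaving out each library, and leaving out both polysomal libraries labelled replicate 3.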

Additional observations from a re-analysis of the deposited data

Results flagged for a closer look

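Of 60 sets of 1 member in 1 gradient group, 9 held a library far from the other 3 by Dixon's criterion, which chance meets in about 1 of 20 sets. Of these, 5 came from the library labelled CNOT1 siRNA polysomal replicate 3, whose CNOT1 level also went against its label. There COL4A1 was at 156.5 CPM (others 94.18 to 97.81), COL4A2 at 154.2 CPM (others 72.76 to 86.18), COL4A6 at 29.12 CPM (others 12.11 to 13.43), LAMC1 at 448.5 CPM (others 207.9 to 228.2) and NID1 at 57.36 CPM (others 32.14 to 33.36). The other 4 lay in as many different groups or libraries. COL4A1 was high in control siRNA subpolysomal replicate 3 at 16.7 CPM (others 11.22 to 11.82). LAMB1 was low in control siRNA subpolysomal replicate 4 at 33.73 CPM (others 37.34 to 37.89). In the input, COL4A5 was low in CNOT1 siRNA replicate 2 at 19.03 CPM (others 21.48 to 21.91), and LAMA1 was high in control siRNA replicate 2 at 17.23 CPM (others 14.98 to 15.35).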

How the results depend on the processing

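Of the members' log2 fold changes under alternatives other than leaving out a replicate, 463 kept their direction and side of the threshold, 38 gained a call, 5 lost it and 9 changed sign. With single replicates left out the counts were 539, 9, 13 and 13. Causes were not tested. Numbers of members called moved as follows. In the eIF4A2 against DDX6 IP, 1 was higher and 2 lower with no filter, and 1 lower by DESeq2 (1718 higher and 2426 lower of 32590 genes, and 2075 and 2376 of 17474). In the subpolysomal pool 1 was lower with RLE factors and 0 with only the compared libraries (3113 of 16776 and 2408 of 15823 genes lower; 0 to 2 with single replicates left out, 0 without control replicate 3 or CNOT1 siRNA replicate 1 or 2). In the polysomal pool 1 was higher and 3 lower without both libraries labelled replicate 3, and 1 higher and 4 lower by DESeq2 without both (2305 genes higher and 3164 lower of 17115). With single polysomal libraries left out, 0 to 2 were higher (2 without the labelled control replicate 3) and 0 to 2 lower (2 without the labelled CNOT1 siRNA replicate 3). For the interaction 0 to 1 were higher with single libraries left out, and 1 was lower by DESeq2 without both (1903 genes). In CNOT1 siRNA cells 9 members had all input libraries above both pools without both.

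The replicate block called 1 member lower in the eIF4A2 against the eIF4A1 IP, and 2 higher and 2 lower in the eIF4A2 against the DDX6 IP. In the input and subpolysomal comparisons, where the numbers pair the libraries, the block kept 7 and 2 members lower and changed no member's call, and folding and export genes in the input counted 5 higher and 4 lower. Elsewhere on the gradients, where they do not, the block without both libraries labelled replicate 3 called 1 higher and 5 lower in the polysomal pool and 1 higher for the interaction (3408 genes higher and 2904 lower, and 2212 higher, of 17115). In TNRC6A/B siRNA cells, with 2 numbers, the block called 1 member higher (HSPG2 at 0.86, FDR 0.000811) beside 520 genes higher and 243 lower of 14064. The block without both gave −0.29 for LAMC1 in the polysomal pool (FDR 0.0358) and −0.30 for NID1 in the interaction (FDR 0.126).

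Some signs changed, and LAMC1 and NID1 were called in the new direction in some settings. LAMC1 in the polysomal pool, at 0.04 in the main fit, was −0.00430 with no filter, −0.29 without both (FDR 0.0608) and −0.37 by DESeq2 without both (FDR 0.0163). With single replicates left out it ran from −0.29 to 0.15. NID1 in the interaction, at 0.06 in the main fit, was −0.0326 with no filter, −0.30 without both (FDR 0.165) and −0.38 by DESeq2 without both (FDR 0.0422). With single replicates left out it ran from −0.19 to 0.14. COL4A5 was −0.0302 between pools in CNOT1 siRNA cells by DESeq2 without both. With single replicates left out, COL4A5 ran from −0.13 to 0.28 in the eIF4A1 IP and from −0.53 to 0.0609 in the polysomal pool, LAMB1 from −0.0613 to 0.00908 and HSPG2 from −0.13 to 0.0684 in the input. The settings with the block or DESeq2 without both were chosen after seeing the data.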
